A study of Homo sapiens with 40 samples.

Results

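The DEAD and DEAH box RNA helicases were taken as every gene whose symbol is DDX or DHX followed by a number and optional letters, leaving out DDX3Y and any gene whose mean input abundance was under 0.5 TPM (a level scaled for transcript length and depth). The rule found 51 genes of the 62263 in the deposited table. Of these, DDX12P and DDX12B are annotated in GENCODE v29 as pseudogenes without a coding sequence, and they count as members by symbol only. The symbols of 55 genes matched, and DDX4, DDX25, DDX43 and DDX53 were left out as too low. The member closest to the minimum was DDX60L at 0.859 TPM, and the closest gene outside was DDX25 at 0.0093 TPM. All 51 members passed the filter on low counts, so no member was lost from the tests.

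RNA was sequenced from BEAS-2B, an immortalised human bronchial epithelial cell line, by Frac-seq, which compares total poly(A) RNA (input) with RNA bound to polyribosomes (polysome), that is, to several ribosomes at once. Per the growth protocol, a control line carried the hairpin shControl and a knockdown line carried shIGF2BP3, a hairpin against the RNA-binding protein IGF2BP3. Sample titles instead read siC and siIGF2BP3, which may stand for a transient knockdown, and the labels do not settle which was used; the groups are called lines here after the protocol. Cells were grown in RPMI with 10% FBS, starved overnight in 2% medium, and either left unstimulated or given the cytokine IL-13 at 100 ng/ml for 24 h. Line, treatment and fraction made 8 groups of 5 libraries, 40 in all. The line and treatment pairs are called the 4 settings. If the protocol holds, each hairpin was represented by 1 constitutive line, and an effect of the knockdown cannot be told apart from any other way in which those lines differ. The labels do not say that the 5 libraries came from separate cultures, so p-values measure the spread between libraries, which may be technical.

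Libraries held 14044352 to 40441061 estimated counts in input and 1816848 to 34082191 in polysome. The 3 polysome libraries under 5000000 counts were all of the knockdown line (unstimulated replicates 1 and 5, IL-13 replicate 5). The targeted gene, IGF2BP3, overlapped between the lines in each setting and was not called in any with all libraries. It averaged 35.2 ± 11.3 CPM (counts scaled for library size; SD, n = 5) in unstimulated control input and 24.9 ± 3.02 in knockdown input. The log2 difference (knockdown minus control, with 1 added to each CPM) was -0.43 in unstimulated input, -0.45 in IL-13 input, -0.03 in unstimulated polysome and -0.28 in IL-13 polysome. The exact permutation tests (two-sided, adjusted over 4 settings) gave adjusted p of 0.206 (unstimulated) and 0.190 (IL-13) in input, and likewise 0.976 and 0.741 in polysome, where the smallest raw p possible was 0.00794. Leaving out 1 library gave a call in each input setting: the adjusted p was 0.0317 by exact permutation without control replicate 1 in unstimulated input, and 0.0317 without knockdown replicate 3 in IL-13 input. Directions between lines therefore rest on the labels. Of 7 epithelial markers, KRT8 (844.6 TPM, median of 20 inputs), KRT18 (579.8), KRT7 (120.0) and KRT19 (35.3) were high, while EPCAM was at 0.299 TPM, CDH1 at 0.143 TPM and KRT5 at 0.0778 TPM. The ciliated and secretory markers FOXJ1, SCGB1A1, MUC5AC and MUC5B had medians of 0 to 0.0356 TPM. Among mesenchymal markers VIM was at 1278 TPM, COL1A1 at 103.3 TPM and COL1A2 at 5.05 TPM, and PDGFRA had a median of 0. Of the leukocyte markers reported, PTPRC and CD3E had medians of 0, and CD14 was at 15.1 TPM (8.26 to 29.2). The endothelial medians were 0 for PECAM1, 0.777 TPM for CDH5 and 0.0309 TPM for VWF. The part of any other cell type in the results was not tested.

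DEAD and DEAH box proteins use ATP to unwind short RNA duplexes, clamp onto RNA or strip proteins from it. They take their names from a conserved run of amino acids in the ATP-binding core, called motif II, which the DEAD box family spells differently from the DEAH box family. Members act at nearly every step of an RNA's life, from splicing and ribosome assembly to nuclear export, initiation, decay and the sensing of viral RNA, and in airway epithelium several of them take part in antiviral defence. The abundance of a helicase's own mRNA on polysomes, relative to input, is what was measured here, not the activity of the protein.

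The coding stretch around motif II is shown for 6 members that span the range of the polysome results below, 3 from the low end and 3 from the high end. Each is 30 nt of coding sequence, 5′ to 3′, from the GENCODE v29 transcripts (GRCh38), with the codons of motif II in capitals and 9 nt on each side in lower case.
DHX29: gttattgtaGATGAGGTTCATgaaagaagt
DHX9: gtaattgtaGATGAAATACATgaaagagat
DDX60: gttatatttGATGAGGTTCATtgtcttggt
DDX49: ctggtgatgGATGAGGCAGACcggctgctg
DDX39A: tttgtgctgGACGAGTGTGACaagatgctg
DDX41: ctggccctgGACGAGGCTGACcgcatgatc

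DHX29 and DDX60 shared the same 12 capital letters. Of 49 coding transcripts searched, 48 held exactly 1 match and DHX32 held none. The match spelled the DEAD codons in 25 members, the DEAH codons in 9 and other codons in 14. DDX41 and DDX49 carried DEAD codons, and the other 4 stretches shown did not, so the symbol does not tell the motif: DDX60 and DDX39A have DDX symbols.

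In input, DDX39B (an mRNA export and splicing helicase) was the most abundant member at 275.7 ± 20.5 TPM (SD, n = 20), followed by its paralogue DDX39A at 120.0 ± 21.8 TPM and by DDX41 at 108.0 ± 23.0 TPM. DDX5 and DDX17, paralogous coregulators of transcription and splicing, followed at 75.7 ± 19.9 and 72.7 ± 16.0 TPM and did not differ from each other beyond their spread. The low end held DDX60L at 0.859 ± 0.252 TPM, its paralogue DDX60 at 1.06 ± 0.440 TPM and DDX20, a component of the SMN complex also known as Gemin3, at 1.85 ± 1.59 TPM. In all, 3 members were above 100 TPM and 10 were under 5 TPM. The members' summed level was 1371 to 1892 TPM in the input libraries and 875.4 to 1730 TPM in the polysome libraries, and these ranges overlap.

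Most member RNAs took a lower share of polysome than of input libraries. Averaged over the 4 settings, 33 of the 51 members were called lower in polysome than in input and 11 were called higher, and 7 were not called (edgeR quasi-likelihood test, Benjamini-Hochberg adjusted p under 0.05 over all 16735 genes tested). The background was 65.1% of all genes called, 38.9% called lower and 26.2% called higher, so that 64.7% of members against 38.9% of all genes were lower. More members were called in either direction, 86.3%. Among those called, 25% of members and 40.2% of all genes were higher. All 51 members had a median input count of at least 100, and the part of count level in these shares was not tested. The median log2 ratio of polysome to input was -0.98 over the members and -0.24 over all genes tested. These ratios compare shares of each library, scaled by TMM, and give no absolute amount of RNA; in bulk RNA, fewer cells with a transcript and less of it per cell cannot be told apart. Setting DHX29, the only member at 0 in all libraries of a group, to the floor given below left the members' median at -0.98. The 33 include DHX29, whose call uses the zeros for which it was named, so that call is no independent support.

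**Figure D1:**
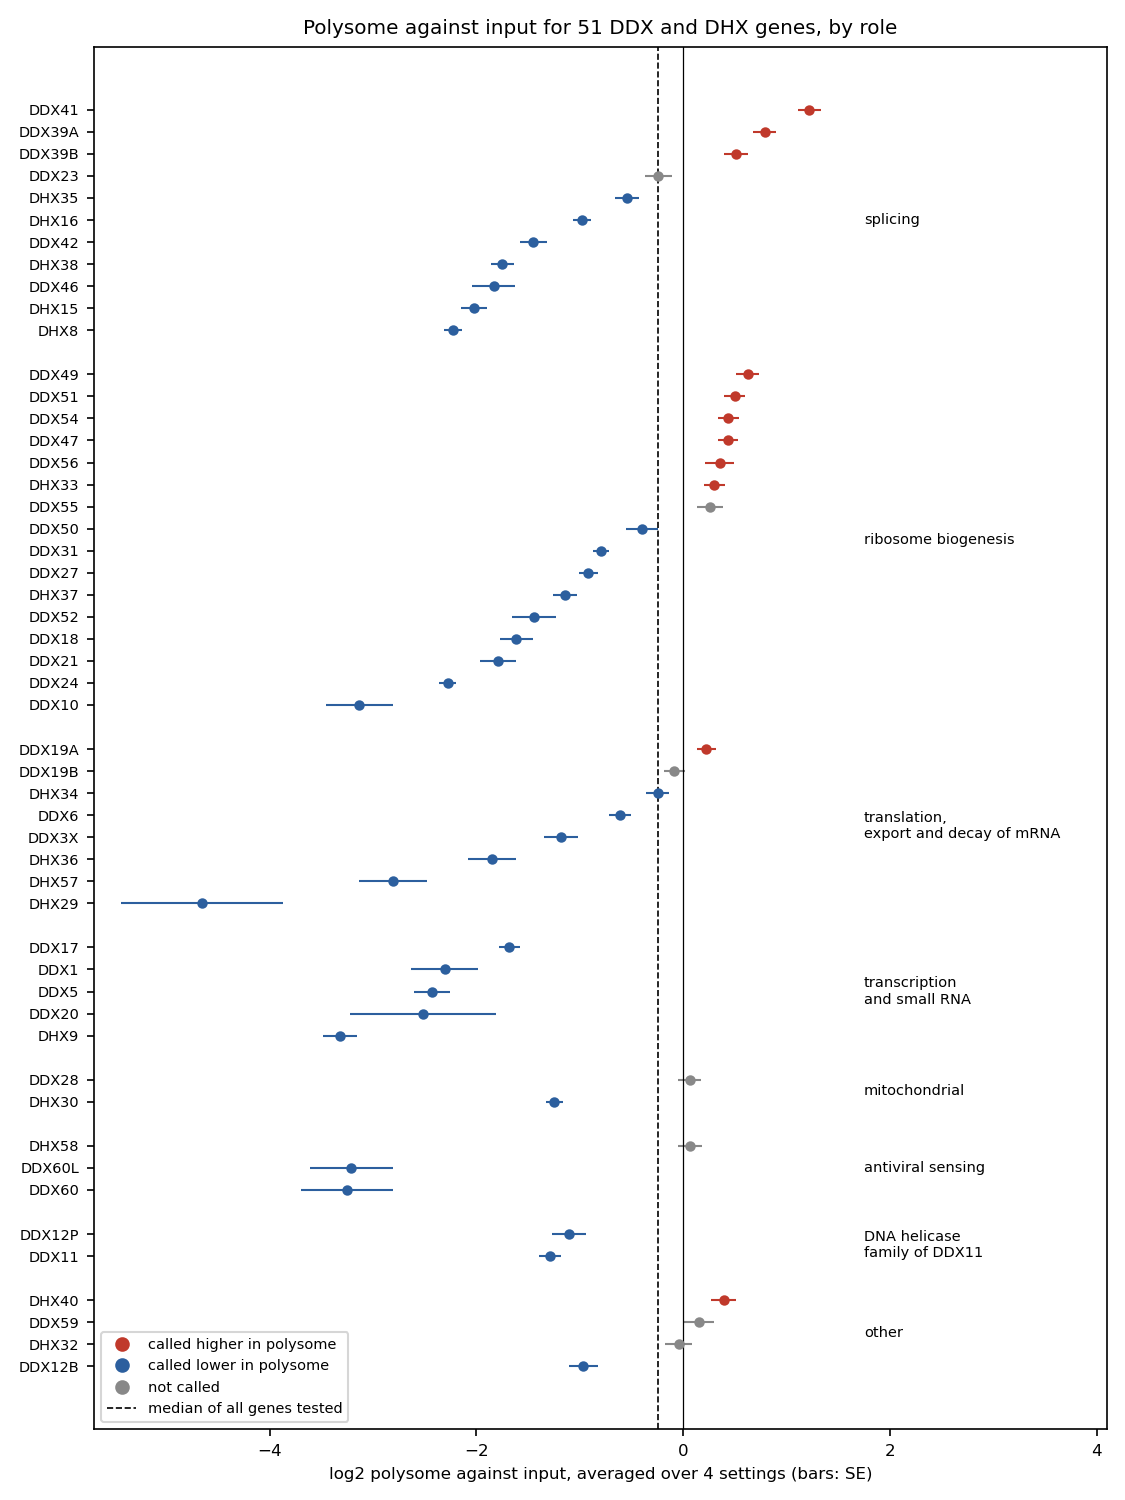
Polysome against input for each of the 51 members, as the log2 ratio averaged over the 4 settings (x axis; bars are standard errors), grouped by role. Filled blue points are called lower (33), red higher (11) and grey not called (7); the dashed line is the median of all genes tested, at -0.24. The 5 members of the transcription and small RNA group all lie to its left.

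Lower calls outnumbered higher calls in each of the 4 settings. In unstimulated control cells 29 members were lower and 8 higher, against 22.8% and 17.4% of all genes (40.2% called in all). The 29 include DHX29, called on the zeros for which it was named. With IL-13 the control line gave 28 lower and 5 higher, against 22.6% and 16.7% (39.3%). The unstimulated knockdown line gave 29 lower and 3 higher, against 22% and 16.4% (38.5%), and with IL-13 it gave 29 and 3, against 23.3% and 16% (39.3%). Members' medians were -0.84, -0.84, -1.16 and -1.17 in that order. Without the 3 low-depth libraries, all of the knockdown line, the medians were -0.77, -0.74, -0.90 and -0.93. A difference in medians between lines was not tested. Whether the number of higher calls differs between lines was not tested, and these small counts rest on single libraries. Without the 3 low-depth libraries the knockdown line gave 6 higher when unstimulated and 9 with IL-13. Leaving out 1 library, the unstimulated knockdown line gave 7 without polysome replicate 5, and with IL-13 it gave 1 without input replicate 3 and 5 without polysome replicate 1. The control line gave 5 when unstimulated without polysome replicate 1, and with IL-13 it gave 3 without input replicate 1 or without polysome replicate 2.

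Gene by gene, 27 members were lower in all 4 settings, as were 16.2% of all genes. DDX41, DDX39A and DDX49 were higher in all 4, as were 13.2% of all genes. Another 9 were called in 1 to 3 settings (22.2% of all genes), 12 in none (48.3% of all genes) and 0 in both directions. For 21 members every polysome library lay below every input library of the same setting, in all 4 settings, which held for 9.45% of all genes. For 17 members this held even across all 20 polysome and all 20 input libraries, as for 7.15% of all genes.

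The splicing helicases went both ways, as did all genes (26.2% higher and 38.9% lower). Of 11 members, 3 were higher, 7 lower and 1 (DDX23, a tri-snRNP component, -0.24 ± 0.130 SE, adjusted p = 0.106) was not called; the group's median was -0.98. DDX41, a spliceosome-associated helicase also known as a sensor of cytosolic DNA, was the highest of all 51. In unstimulated control cells its 5 input libraries gave 66.9, 114, 121, 169 and 120 CPM, and the polysome libraries of the same replicate numbers gave 154, 314, 282, 430 and 375 CPM. The ranges overlap only because polysome replicate 1, at 154, is below input replicate 4, at 169. The averaged log2 ratio was 1.22 ± 0.108 (SE), a 2.33-fold difference with an adjusted p of 1.13e-12. In the other 3 settings, every polysome library of DDX41 was above every input library.

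DDX39A and DDX39B, close paralogues that load export factors on spliced mRNA, were both higher. DDX39A gave 116, 88.7, 126, 204 and 140 CPM in unstimulated control input and 252, 292, 231, 340 and 194 CPM in polysome. Here too only the highest input and the lowest polysome library cross. Its averaged ratio was 0.79 ± 0.112, against 0.51 ± 0.116 for DDX39B, and the difference between the paralogues was not tested. The lowest of the splicing members were DHX8 and DHX15: DHX8, which releases the finished mRNA, was at -2.23 ± 0.0916, DHX15, which dismantles the lariat spliceosome, at -2.02 ± 0.126 and DHX38, of the second splicing step, at -1.75 ± 0.111. The other lower splicing members, DDX46, DDX42, DHX16 and DHX35, ran from -1.83 to -0.54. DHX8 input libraries of unstimulated control cells lay between 77.5 and 105 CPM, and polysome libraries between 16.3 and 24.5 CPM.

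**Figure D2:**
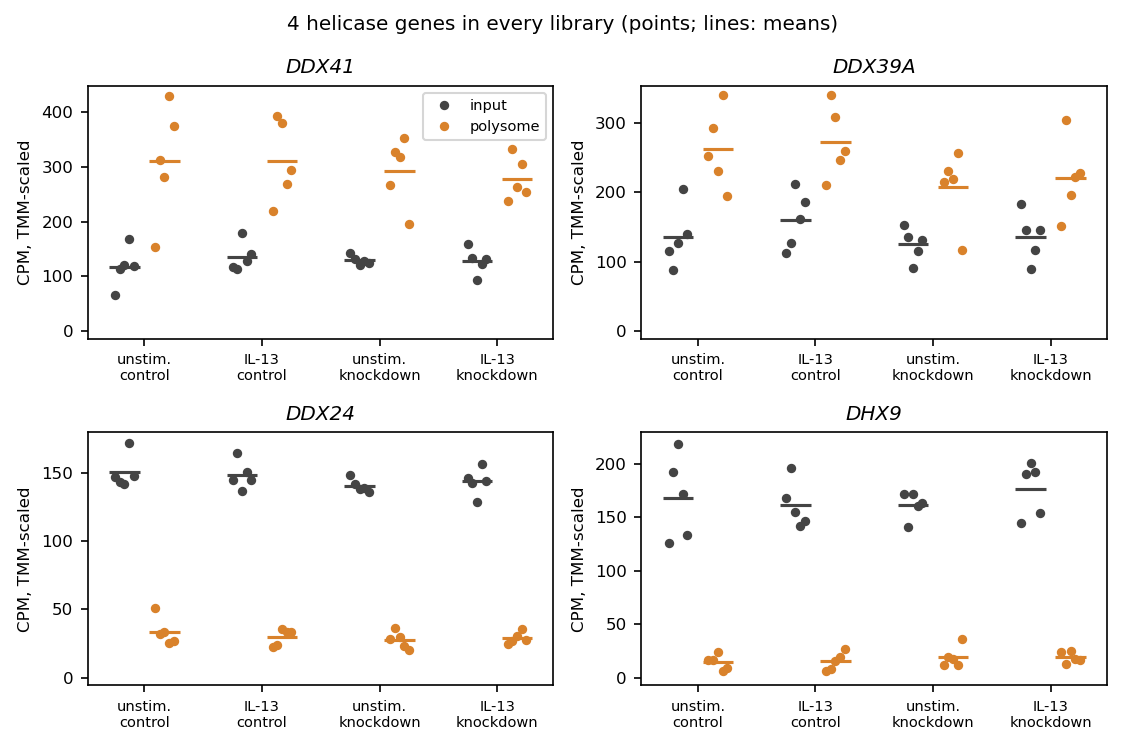
CPM (TMM-scaled, y axis from 0) of DDX41, DDX39A, DDX24 and DHX9 in each of the 40 libraries, by setting; grey points are input, orange points polysome, and lines are means of 5. DDX24 and DHX9 polysome libraries sit below all their input libraries in every setting, while DDX41 and DDX39A polysome means sit above.

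Helicases of ribosome biogenesis also went both ways. Against 26.2% higher and 38.9% lower of all genes, 6 of 16 were higher, 9 lower and DDX55 (0.26 ± 0.123, adjusted p = 0.0651) was not called. The group's median was -0.60. The higher ones were DDX49 (0.62 ± 0.110), DDX51 (0.50 ± 0.102), DDX54 (0.44 ± 0.101), DDX47 (0.43 ± 0.0981), DDX56 (0.35 ± 0.143) and DHX33 (0.30 ± 0.101). All 6 ratios were smaller than that of DDX41. On the low side were DDX10 at -3.13 ± 0.325, DDX24 at -2.28 ± 0.0824 and DDX21, a nucleolar helicase that also binds snoRNAs, at -1.79 ± 0.172. The other 6 lower members, DDX18, DDX52, DHX37, DDX27, DDX31 and DDX50, ran from -1.62 to -0.40.

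DDX24 had the smallest p of all members. Its input libraries of unstimulated control cells gave 147, 143, 142, 172 and 148 CPM, and its polysome libraries 50.6, 31.6, 33.1, 25.3 and 27.1 CPM. The groups do not overlap: over all 40 libraries input ran from 128.7 to 171.8 CPM and polysome from 20.5 to 50.6 CPM. The ratio corresponds to a 4.85-fold lower level, with an adjusted p of 9.37e-24. The paralogues DDX21 and DDX50 gave different values, -1.79 ± 0.172 and -0.40 ± 0.154, with the difference between them not tested.

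All 5 members of the group acting in transcription and small RNA pathways were lower, against 38.9% of all genes. Their median was -2.43, the lowest of the groups with at least 5 members. DHX9, a nuclear helicase that resolves RNA structure and RNA to DNA hybrids, gave 126, 192, 219, 172 and 133 CPM in unstimulated control input. Its polysome libraries gave 16.6, 16.1, 23.8, 6.45 and 9.14 CPM, all far below input. The averaged ratio was -3.32 ± 0.163, a 9.96-fold lower level (adjusted p = 6.35e-20).

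DDX5 and DDX17 had ratios of -2.43 ± 0.174 and -1.68 ± 0.103, and the difference between them was not tested. DDX5 gave 115 to 181 CPM in unstimulated control input and 9.92 to 29.3 CPM in polysome, with no overlap. DDX1, of the tRNA ligase complex, was at -2.31 ± 0.326. DDX20 was at -2.52 ± 0.703, the value in this group with the widest error; it was called lower in the unstimulated settings of both lines and in neither IL-13 setting. That value depends on single libraries: without polysome unstimulated control replicate 3 it was -4.09, and without polysome unstimulated knockdown replicate 2 it was -3.87.

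Among 8 helicases of mRNA translation, export and decay, 6 were lower (38.9% of all genes), 1 was higher (26.2%) and 1 was not called. Their median was -0.90. The 6 include DHX29, which helps the small ribosomal subunit scan structured leaders and whose call uses the zeros for which it was named. Its fitted value was the lowest of all members. With the floor given below in place of those zeros it was -3.28, above DHX9 at -3.32, so the rank is not firm. DHX29 is described with the zeros. DHX57 was at -2.81 ± 0.330, DHX36, which unwinds G-quadruplexes, at -1.85 ± 0.234 and DDX3X, which aids initiation on structured mRNAs, at -1.18 ± 0.162. DDX6, which acts in mRNA storage and decapping, was at -0.61 ± 0.102, and DHX34, of nonsense-mediated decay, at -0.25 ± 0.109 (adjusted p = 0.0459). DDX19A, of mRNA export, was at 0.22 ± 0.0921 (adjusted p = 0.0322), and its paralogue DDX19B at -0.09 ± 0.102 was not called (adjusted p = 0.472).

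The smaller groups followed. Of 2 mitochondrial helicases, DHX30 was lower (-1.25 ± 0.0842) and DDX28 was not called (0.06 ± 0.108). Of 3 antiviral genes, DDX60 and DDX60L were lower at -3.25 ± 0.446 and -3.21 ± 0.401, while DHX58 (LGP2, a RIG-I-like receptor) was at 0.07 ± 0.115 and was not called. DDX11, grouped here as a DNA helicase, and the pseudogene DDX12P were both lower (-1.29 ± 0.106 and -1.11 ± 0.165). With the pseudogene DDX12B (-0.97 ± 0.141) they are near-identical copies, so how reads were split among them is uncertain. Among DHX40, DDX59 and DHX32, DHX40 was higher (0.39 ± 0.124), and DDX59 (0.15 ± 0.153) and DHX32 (-0.04 ± 0.129) were not called.

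Other helicase and partner genes, listed with earlier results of these data known, were read the same way. The first list held RNA helicase genes whose symbols fall outside the rule, whatever their family. Of 20 tested, 14 were lower (38.9% of all genes), 2 higher (26.2%) and 4 not called, with a median of -1.64. The higher ones were the initiation helicases EIF4A1 (0.67 ± 0.133) and EIF4A2 (0.64 ± 0.153), whereas the spliceosomal SNRNP200 was at -4.04 ± 0.183 and the decay helicase UPF1 at -3.88 ± 0.365. Of 33 cofactor and partner genes, 12 were higher (26.2% of all genes), 17 lower (38.9%) and 4 not called. Their median was -0.21, close to that of all genes.

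Long coding sequences went with low polysome ratios. Across the 49 members with a coding transcript, coding length and log2 ratio had a Spearman rho of -0.684 (Pearson r -0.705), against -0.449 over 13445 genes. For transcript GC content rho was 0.523 over 51 members and 0.0811 over 16061 genes, and for 3′UTR length it was -0.147 and -0.115. The points share libraries and the 2 features may be related, so these are descriptions with no test. Without DHX29 and DDX20 the coding-length rho was -0.666. Lengths and GC content are those of 1 annotated transcript per gene, chosen for its long coding part, which may not be the one expressed. With the whole-transcript length implied by the deposited input counts and TPM, rho was -0.496 over 51 members and -0.293 over 16059 genes. The members called higher had a median coding length of 1641 nt (1281 to 2646) and those called lower 2625 nt (1449 to 5136), and their median GC contents were 56.6% and 44.9%.

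**Figure D3:**
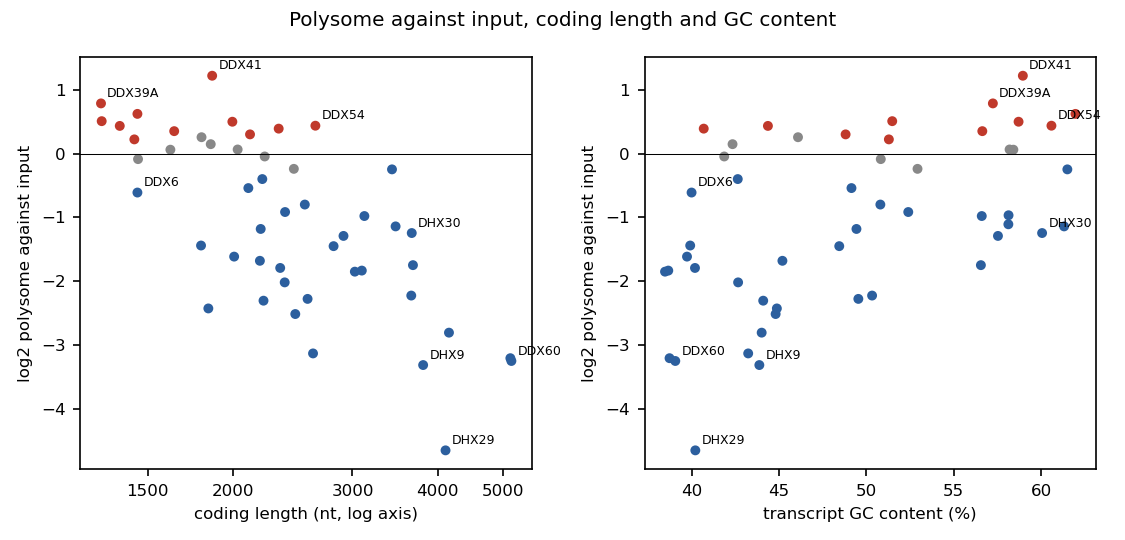
Log2 ratio of polysome to input (y axis) against coding length in nt (left, log axis, 49 members) and transcript GC content in percent (right, 51 members). Red points are called higher, blue lower and grey not called; the lowest ratios lie at long coding lengths, with DDX60 the longest of the labelled genes.

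Read by motif, the DEAD codon members had a median ratio of -0.61 (7 higher, 13 lower of 25), the DEAH codon members -1.14 (2 higher, 7 lower of 9) and those with other codons -1.62 (2 higher, 11 lower of 14). Of all genes, 26.2% were called higher and 38.9% lower. The ranges of the 3 motif groups overlap widely: DEAD codon members run from -3.13 (DDX10) to 1.22 (DDX41). Among the stretches printed above, DDX39A has other codons and a high ratio while DHX29, DHX9 and DDX60 have other codons and low ones. By symbol, 21 of 35 DDX genes and 12 of 16 DHX genes were lower, against 38.9% of all genes, with medians of -0.92 and -1.19. DHX29, called on the zeros for which it was named, is among the 12 and among the 11 lower members with other codons. Input level and ratio had a rho of 0.321 (Pearson r 0.394) over the 51 members.

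A value of 0 was listed in 46 of the 1020 polysome values of the members and in 6 of the 1020 input values. These came from 8 members: DHX29 and DDX20 (12 polysome libraries each), DDX60L (7), DDX60 and DHX57 (4 each), DDX1 and DDX10 (3 each) and DDX52 (1). Only DHX29 was at 0 in all 5 libraries of a group, the unstimulated control polysome. Replicate 5 of the IL-13 knockdown polysome group, with 2302952 counts, listed 8 members at 0. Of genes detected in every input library, 15.5% were at 0 in that library, and 10.4% of the 48 such members. These shares leave out DHX29, DDX20 and DDX60, which had input zeros and hold many of the polysome zeros. They therefore do not compare all members with all genes. The shallowest library, replicate 5 of the unstimulated knockdown polysome group with 1816848 counts, listed 3 members at 0, and the same shares were 9.37% and 4.17%. The members' share was not the lower one in every library. In unstimulated control polysome replicate 1 the shares were 3.67% of such genes and 6.25% of such members. Without the 3 low-depth libraries 7 members still had a zero.

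DHX29 was listed at 0, 0, 0, 0 and 0 counts in unstimulated control polysome, in libraries of 10075876 to 26924954 counts. In the matching input libraries it was counted 202, 531, 858, 631 and 95 times. The polysome libraries gave 57, 0, 135, 105 and 0 counts in IL-13 control cells, 0, 40, 0, 66 and 25 in unstimulated knockdown cells and 153, 0, 302, 0 and 0 in IL-13 knockdown cells. Zeros and clearly positive counts thus occur within each of these 3 groups.

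Against the floor of 3 counts per library, 0.243 CPM on average, DHX29 was at least 56.1-fold lower in unstimulated control polysome than in input (13.6 ± 7.87 CPM, SD, n = 5). This value comes from the zeros for which the gene was named. The floor covers counting error only, so the value is a bound only if those zeros are low counts. The fitted ratio of -4.65 ± 0.780 averaged over settings depends on the fitting constant of the model and is no bound; with the floor in its place the average is -3.28. The ratios were -2.21 in IL-13 control, -2.59 in unstimulated knockdown and -2.53 in IL-13 knockdown cells, and none of these was called (adjusted p = 0.117, 0.0876 and 0.0721).

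A 0 in this table is not a sign that the RNA is absent. DHX29 was listed at 0 in an IL-13 control input library of 21713842 counts, beside sister libraries with 570, 597, 613 and 195 counts. DDX20 was listed at 0 in 4 input libraries, with up to 323 counts in others. Of 10972 genes with a median input count of at least 100, 93 (0.848%) had an input library at 0, and 3 of the 51 members did (DHX29, DDX20 and DDX60). The cause was not tested.

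**Figure D4:**
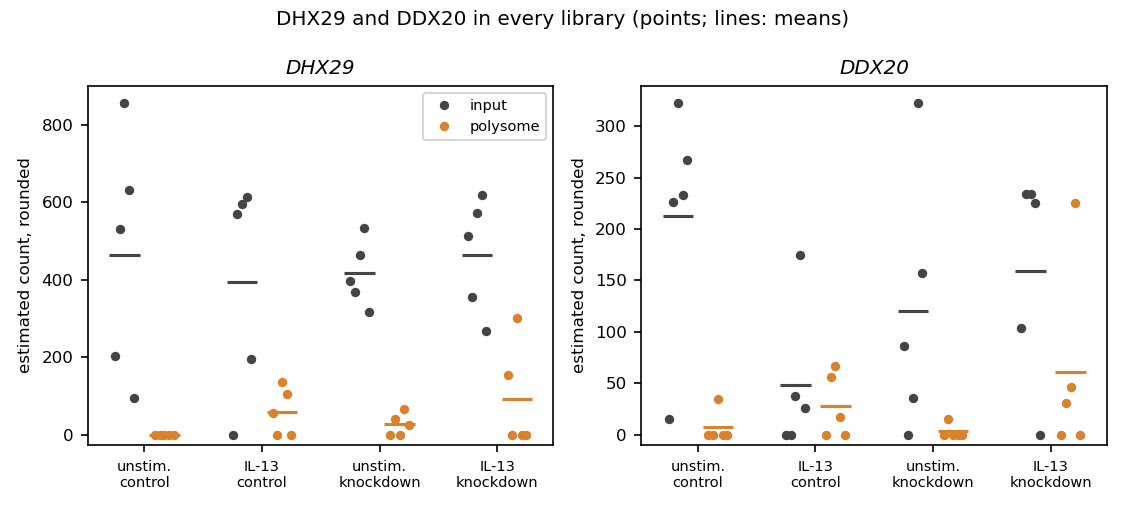
Estimated counts (rounded, y axis) of DHX29 and DDX20 in every library; grey points are input, orange points polysome, lines are means of 5. DHX29 is at 0 in all 5 unstimulated control polysome libraries and in 1 input library, and DDX20 is at 0 in 12 polysome and 4 input libraries.

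No helicase was called for IL-13. By edgeR 0 of 51 members were called in control input, knockdown input, control polysome or knockdown polysome, where 0.0777%, 0.0837%, 0.125% and 0.0956% of all genes were called. Unadjusted p-values under 0.05 were found for 0, 0, 4 and 1 members. Averaged over lines, 0 members were called in input (0.149% of all genes) and 0 in polysome (0.209%), with 0 and 3 at an unadjusted p under 0.05. With DESeq2's Wald test DHX29 alone was called in control polysome and in the polysome average. Both comparisons use the unstimulated control polysome group. Its DHX29 zeros were known when the gene was named, so these calls are no independent support.

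The intervals give the precision behind these counts. The 95% interval of a member's averaged IL-13 effect reached, at the median, 0.346 to either side in input and 0.354 in polysome on the log2 scale. DDX41 differed with IL-13 by 0.10 (95% interval -0.21 to 0.41) in input and -0.03 (-0.34 to 0.27) in polysome, and DHX9 by 0.03 (-0.39 to 0.46) and 0.07 (-0.37 to 0.51). With the floor in place of the unstimulated control zeros, DHX29 was 11.4-fold higher in IL-13 control polysome, and 7.83-fold without IL-13 replicate 1. Its adjusted p by edgeR was 0.270, and 2 of the 5 IL-13 libraries were at 0. The fold and the p both use the zeros for which the gene was named, so they are no independent support. The fold is a bound only if the unstimulated control zeros are low counts.

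**Figure D5:**
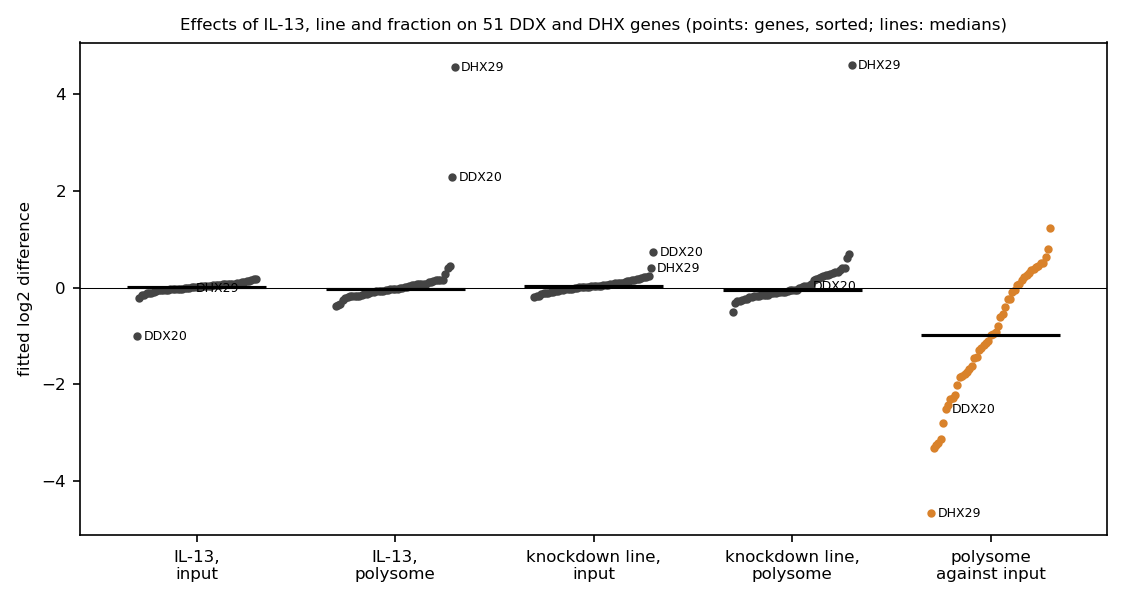
Fitted log2 differences (y axis) of the 51 members for IL-13 and for the knockdown line, each averaged and shown for input and polysome, beside polysome against input; points are genes sorted by value and lines are medians. Medians of the IL-13 and line effects lie near 0; the DHX29 points above 4 involve a group listed at 0 and are fitted values, not bounds.

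No helicase was called between the lines either. By edgeR 0 of 51 were called in unstimulated input, IL-13 input, unstimulated polysome and IL-13 polysome (0.012%, 0%, 0.0299% and 0.0896% of all genes), with 0, 0, 2 and 2 members at an unadjusted p under 0.05. Averaged over treatments, 0 were called in input (0.406% of all genes) and 0 in polysome (1.38%), with 0 and 4 at an unadjusted p under 0.05. DESeq2 called DHX29 in unstimulated polysome and in the polysome average, which again use the unstimulated control polysome zeros known beforehand.

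The smallest p in IL-13 polysome was that of DHX30, a mitochondrial helicase. Its control libraries gave 69.1, 95.0, 83.9, 66.2 and 73.0 CPM, and its knockdown libraries ran from 39.9 to 79.2 CPM with a mean of 55.2 ± 14.9 CPM (SD, n = 5). The groups overlap, since the highest knockdown library is above 3 of the control libraries. The difference was -0.48 (95% interval -0.82 to -0.14) with an adjusted p of 0.288. With the floor in place of the unstimulated control zeros, DHX29 was 14.5-fold higher in the unstimulated knockdown line's polysome. Its adjusted p by edgeR was 0.241, and 2 of 5 libraries were at 0. The fold rests on replicate 5, without which it was 5.50-fold, and it too is a bound only if the unstimulated control zeros are low counts. Fold and p again use the zeros known beforehand and are no independent support. The highest DHX29 value, 12.2 CPM, came from 25 counts in the library of 1816848.

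The polysome ratio was not shown to differ by line or by IL-13 for any member. For the interaction of line with fraction, of IL-13 with fraction, and of IL-13 with line in input and in polysome, edgeR called 0 members and 0% of all genes in each. Unadjusted p-values under 0.05 were found for 2, 4, 0 and 1 members. DESeq2 called DHX29 in both interactions with fraction and in that of IL-13 with line in polysome. All of these use the same zeros known beforehand. DDX12B had the smallest p for line and fraction, -0.68 (95% interval -1.25 to -0.11), with an adjusted p of 1.00. The interval reached, at the median, 0.495 to either side for both interactions with fraction.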

How the data were processed

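Estimated counts and TPM of 62263 genes in 40 libraries were deposited by the authors in 1 table; per the submitters' processing notes, Trimmomatic, Salmon, MultiQC and DESeq2 were used. Genome build and annotation are not given in the sources used here, so no coordinates are printed. TPM deposited by the authors are scaled for length and depth; those held summed to 82.3% to 85.9% of a full set. Estimated counts were rounded, although the design had assumed counts. filterByExpr kept 16735 genes; edgeR 4.0.16 (R 4.3.3) was fitted with TMM scaling and 8 group means over 40 libraries (32 residual degrees of freedom), and p-values were adjusted over all genes. Standard errors are those implied by the F statistic. The fitting was tested on simulated data. Replicate numbers did not pair the samples throughout. No 2 replicates agreed within sampling noise. Floors cover counting error only.

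The members, lists and tests were chosen with earlier results of these data known. Named genes were those with the 6 largest called ratios in each direction, the 5 most and 3 least abundant, whole-group zeros and the smallest p in each comparison; others were named as examples of a role. Sequences are from GENCODE v29 (GRCh38). DESeq2 1.42.0, other filters, a length offset, replicate blocks and left-out libraries were the alternatives.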

Additional observations from a re-analysis of the deposited data

Results flagged for a closer look

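Of 192 sets of 5 values examined for the members named by rule, 12 had 1 library standing apart by Dixon's test, where chance gives about 9.6. Of these 12, 4 are in low-depth libraries. In polysome of the unstimulated knockdown line, replicate 5 stood apart for DDX10 (6.35 CPM, others up to 1.57), DHX29 (12.2 CPM, others up to 3.10) and, on the low side, DHX38 (12.2 CPM, others from 26.6), replicate 1 for DDX47 (148 CPM, others up to 104.9) and replicate 2 for DDX20 (0.842 CPM, others at 0). DDX20 also stood apart in unstimulated control polysome replicate 3 (1.83 CPM, others at 0) and in IL-13 knockdown polysome replicate 4 (7.24 CPM, others up to 1.31).

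In unstimulated control input, replicate 4 was high for DDX24 (172 CPM, others up to 147.7) and DDX49 (106 CPM, others up to 70.5). In IL-13 control input, replicate 3 was low for DDX51 (26.4 CPM, others from 39.9) and replicate 2 high for DHX33 (57.7 CPM, others up to 42.0). In IL-13 knockdown input, replicate 4 was high for DDX59 (12.5 CPM, others up to 11.1).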

How the results depend on the processing

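Counts of called members stayed within 1.5 times of their main value under each edgeR alternative run. Leaving out 1 library at a time gave 41 to 45 called of the main 44 averaged over settings, 32 to 37 in unstimulated control, 29 to 33 in IL-13 control, 29 to 36 in the unstimulated knockdown line and 29 to 34 with IL-13, and 0 to 0 in the 16 other comparisons. With the replicate number as a block 44 members were called averaged over settings, and with the culture as a block 43; neither changed a call count by over 1.5 times. Replicate numbers did not pair the samples throughout. Same-number input and polysome libraries had r over 0.1 in 9 of 20 pairs (-0.457 to 0.556). Of 20 input libraries, 3 correlated best with the polysome library of their own number, all in unstimulated control (r = 0.532, 0.556 and 0.398). Without both libraries of unstimulated control replicate 1, higher calls in unstimulated control were 3 in place of 8. The DESeq2 Wald test called 1 member, DHX29, in 7 comparisons. These were the IL-13 effect in control polysome and averaged in polysome, and the line effect in unstimulated polysome and averaged in polysome. The others were both shifts and the polysome difference of the IL-13 effect between lines. All 7 use the unstimulated control polysome group, whose DHX29 zeros were known when the gene was named, so they are no independent support. The median over all genes moved from -0.24 to -0.12 with an offset for transcript length, which was chosen after seeing the data, and to -0.34 with the culture block. The IGF2BP3 difference without 1 library ran from -0.601 to -0.302 in unstimulated input (adjusted p = 0.0317 by exact permutation without control replicate 1), from -0.566 to -0.328 in IL-13 input (0.0317 without knockdown replicate 3), from -0.371 to 0.207 in unstimulated polysome, and from -0.545 to 0.0542 in IL-13 polysome; it was positive in unstimulated polysome at 0.207, 0.175, 0.0741, 0.0198 and 0.157, and in IL-13 polysome at 0.0542. The floor-based fold of DHX29, recomputed without each library in turn (chosen after seeing the data), ran from 5.50-fold to 18.1-fold in unstimulated knockdown polysome. In IL-13 control polysome it ran from 7.83-fold to 14.2-fold. In 3 polysome libraries the depth was under 5000000 counts.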
